A study of Mus musculus with 24 samples.

Results

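The genes described here are the p53 transcription factor gene Trp53 and 9 genes of its pathway: Mdm2, Cdkn2a, Cdkn1a, Ccng1, Bax, Bbc3, Phlda3, Zmat3 and Sesn1. They were read by gene symbol from the 2 deposited expression tables, and the list was chosen with earlier results of these data known. All 10 were present among the 17501 genes of the table for mouse embryonic stem cells (mESC) and among the 16024 genes of the table for neural progenitor cells (NPC). All 10 also passed the filter on low values (at least 1 normalised CPM, the read count scaled to library size, in at least 2 libraries of a table), which left 13916 genes in mESC and 13206 in NPC. The median level of Cdkn1a, Bbc3, Phlda3 and Cdkn2a was lower than that of the other 6 members in each table, and the lowest single value was that of Bbc3 in 1 NPC library, which rested on 35 reads.

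The study followed an allelic series of huntingtin (Htt, also called Hdh), the gene whose expanded CAG repeat causes Huntington's disease. The knock-in mESC lines were heterozygous, carrying 1 Htt allele with an inserted repeat of 20 (Q20), 50 (Q50), 92 (Q92) or 111 (Q111) CAG units, and they were compared with a wild-type line (WT) and an Htt knockout line (KO). The growth protocol gives 89 units for the allele that the sample titles call Q92. All mESC lines were grown with leukemia inhibitory factor on irradiated CF-1 mouse embryonic fibroblast feeders. NPC were derived from them in N2B27 medium and then expanded with FGF and EGF on laminin. Each of the 6 genotypes had 2 RNA-seq libraries in each cell type, 24 in all, described as biological samples. Whether the 2 samples of a genotype came from separate clones, whether the KO line had lost both alleles, and where in the gene it was disrupted are not given in the sources used here. A difference between genotypes and a difference between single lines therefore cannot be told apart, and p-values measure the spread between these samples.

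The transcription factor p53 is kept low in unstressed cells by the ubiquitin ligase MDM2 and accumulates after DNA damage or oncogene signals, when it induces genes that halt the cell cycle, repair DNA or start cell death. It also induces Mdm2 itself, which closes a feedback loop. Control of p53 is largely at the level of protein stability and activity, which RNA levels do not show. In stem and progenitor cells the pathway limits self-renewal, and Cdkn2a and Cdkn1a are known brakes on the proliferation of neural progenitors.

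Sequence near the transcription start was examined because p53 acts through a response element made of a repeated short motif. Promoter windows from 250 bases before to 50 after a start were read from RefSeq (GRCm38.p6) for 9 of the 10 genes, with 14 windows in all; Zmat3 was not matched. No window held a full match to the consensus p53 response element with a spacer of 0 or 1 base, and 0.00913% of the 32851 promoters of the table did. The consensus is its own reverse complement, so both strands were covered. Allowing up to 2 mismatches outside the fixed core bases, a limit set after the strict search, gave a match in 3 members and in 0.682% of all promoters. Those 3 sequences are shown because they are the members whose windows resemble the element; capitals mark the whole site, mismatches and spacer included, and letters run 5′ to 3′ on the strand of the gene.
Cdkn1a: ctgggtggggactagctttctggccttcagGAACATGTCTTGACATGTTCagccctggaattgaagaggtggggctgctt
Ccng1: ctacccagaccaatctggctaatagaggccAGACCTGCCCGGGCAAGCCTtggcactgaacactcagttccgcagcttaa
Bax: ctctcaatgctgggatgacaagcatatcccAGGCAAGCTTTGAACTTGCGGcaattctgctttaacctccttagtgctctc
The Cdkn1a stretch lies at chr17:29090898-29090977 on the plus strand and holds 1 mismatch. The Ccng1 stretch lies at chr11:40755432-40755511 on the minus strand and also holds 1 mismatch, and matches with at most 1 mismatch occurred in 0.11% of all promoters. The Bax stretch lies at chr7:45467049-45467129 on the minus strand, with 2 mismatches and a spacer of 1 base. A match is a description of letters and shows no binding, and a window without one says nothing of p53 acting elsewhere in the gene.

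The tables were deposited as normalised CPM, and every value was a whole number of reads times a constant for its library, which gave depths of 58546211 to 81502284 reads in mESC and 48525333 to 118038952 in NPC. The targeted gene did not separate the KO and WT libraries in mESC: Htt stood at 124 and 113 CPM in WT, at 139 CPM in the first library labelled KO and at 68.5 CPM in the second. In NPC it was lower in the libraries labelled KO, at 100 and 94.9 CPM, than in WT, at 137 and 177 CPM, so a transcript was present in every KO library. Pluripotency markers, of which 9 of 10 were measured, summed to 2060 to 3909 CPM in mESC. In NPC 6 of 10 were measured and 4 reached 1 CPM. They summed there to 4.76 to 26.6 CPM in every library except those of Q20, which had 106 and 108 CPM. Most of the Q20 sum was Pou5f1, which reached 90.1 CPM, while no other marker of the list exceeded 18.5 CPM in NPC. Neural progenitor markers, of which 11 of 12 were measured, summed to 4322 to 9745 CPM in NPC, with the 2 Q20 libraries the lowest (4322 and 4497 CPM). Early lineage markers, of which 7 of 8 were measured, were highest in those 2 libraries as well, at 10.8 and 12.9 CPM, beside 0.988 to 6.83 CPM in the others. The WT and KO groups of NPC each held 2 libraries that differed widely in proliferation genes: 12 cell-cycle genes summed to 600 and 1861 CPM in WT and to 598 and 1866 CPM in KO.

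Ordered by the median CPM per kilobase of exon, Bax (94.3 per kb) and Ccng1 (75.0 per kb) stood first in mESC, followed by Trp53 (49.4 per kb) and Mdm2 (26.8 per kb). Sesn1, Cdkn2a, Bbc3, Phlda3, Zmat3 and Cdkn1a lay between 9.99 and 3.27 per kb, in that order. In NPC Bax (85.6 per kb) and Ccng1 (83.1 per kb) again stood first and differed by less than the range of either gene. Cdkn2a was next (25.6 per kb), then Trp53 (16.9 per kb), Mdm2 (16.6 per kb) and Sesn1 (14.5 per kb), then Cdkn1a (10.1 per kb), with Zmat3, Phlda3 and Bbc3 at 6.30 to 2.12 per kb. The tables were scaled separately, so a level in one is not compared with a level in the other; the order within a table is a description.

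In NPC the longer alleles differed from Q20 in 7 of the 10 members in at least 1 of 3 comparisons or in the trend, as they did in 50.6% of all genes: Trp53, Mdm2, Cdkn1a, Bax and Zmat3 rose, and Cdkn2a and Sesn1 fell. In Q50 against Q20, 3 of 10 were called (2 higher, 1 lower), where 18.8% of all genes were called, 8.05% higher and 10.7% lower. In Q92, 4 of 10 were called, all higher, where 25.8% of all genes were called, 9.88% higher and 15.9% lower. In Q111, 3 of 10 were called (1 higher, 2 lower), where 28.3% of all genes were called, 12.2% higher and 16.1% lower. For a straight line over repeat length the count was 3 of 10 (2 higher, 1 lower), beside 22% of all genes, 12% higher and 10.1% lower. Changes are differences of log2(CPM + 1), and a call is a limma adjusted p under 0.05, with adjustment over all genes tested.

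The test of any difference among the 6 genotypes called Trp53, Cdkn2a, Cdkn1a and Bax, 4 of 10, beside 38% of all genes. With 10 genes, shares of 3 or 4 in 10 lie near most of these backgrounds, and no test of the list was made. The 2 libraries of the longer allele lay wholly above or below those of Q20 for 7 of 10 members in Q50, 10 of 10 in Q92 and 9 of 10 in Q111, as they did for 70.1%, 77.2% and 78.2% of all genes. The median change over the 10 members was 0.54 in Q50, 0.91 in Q92, 0.69 in Q111 and 0.73 for the trend, and the medians over all genes tested were -0.00, 0.06, 0.03 and 0.04. The comparisons share the Q20 libraries, in which Cdkn1a and Bax were at their lowest and Sesn1 reached its highest value.

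**Figure D1:**
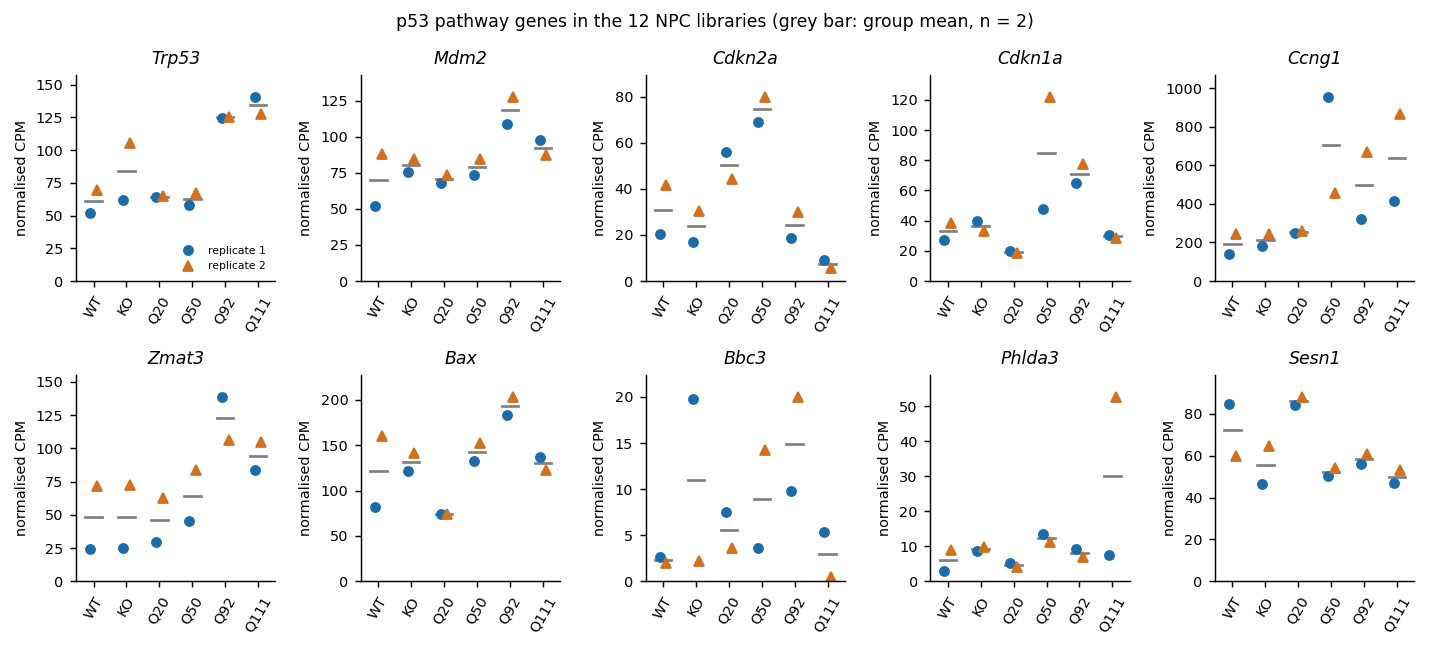
Normalised CPM (vertical axes, linear, from 0) of the 10 genes in the 12 NPC libraries by genotype; circles are replicate 1, triangles replicate 2 and grey bars the mean of 2. Trp53 sits at 125 to 141 CPM in Q92 and Q111 and at 58.1 to 67.1 CPM in Q20 and Q50, and Cdkn2a is lowest in Q111.

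Among the regulators, Trp53 was higher in NPC of the 2 longest repeats. Its levels in NPC were 64.0 and 65.0 CPM in Q20, 58.1 and 67.1 CPM in Q50, 125 and 126 CPM in Q92, and 141 and 127 CPM in Q111. WT libraries held 52.0 and 69.6 CPM and KO libraries 61.7 and 106 CPM. All 4 libraries of Q92 and Q111 were thus above all 8 others. Against Q20, Trp53 rose by 0.95 in Q92 (SE 0.24, limma adjusted p = 0.0234) and by 1.04 in Q111 (SE 0.24, limma adjusted p = 0.0159). Its difference in Q50 was -0.05 (95% confidence interval -0.60 to 0.51). Fitted as a straight line over the 8 knock-in libraries, Trp53 rose by 1.22 from 20 to 111 repeats (SE 0.19, limma adjusted p = 0.00482). The Q92 and Q111 calls were lost without any 1 of the 4 libraries of the pair, with adjusted p of 0.0928 to 0.108 and 0.0636 to 0.09. The trend was called without any single library and was not called with 1 mean per line (adjusted p = 0.303), a fit with 4 points that called 0 of the 13206 genes.

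Mdm2, the ligase that degrades p53, stood in NPC at 67.9 and 73.5 CPM in Q20, 73.7 and 84.4 CPM in Q50, 109 and 128 CPM in Q92, and 97.5 and 87.1 CPM in Q111. WT had 52.2 and 88.4 CPM and KO 75.7 and 84.6 CPM. The 2 Q92 libraries were the highest of the 12, and the other genotypes overlapped in part. Against Q20, Mdm2 rose by 0.73 in Q92 (SE 0.23, limma adjusted p = 0.0484), a call lost without any 1 of the 4 libraries (0.112 to 0.205), with the count model edgeR (0.0546), with median-of-ratios scaling (0.0524) and at a mean of at least 5 CPM (0.0588). Its trend of 0.55 over the series did not pass (SE 0.20, limma adjusted p = 0.0769).

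Cdkn2a encodes the CDK4/6 inhibitor p16INK4a and, in another reading frame, p19ARF, which blocks MDM2; values per gene cannot tell the 2 transcripts apart. In NPC it stood at 55.9 and 44.4 CPM in Q20, 69.0 and 79.9 CPM in Q50, 18.6 and 29.7 CPM in Q92, and 9.33 and 5.71 CPM in Q111. WT libraries held 20.4 and 41.5 CPM and KO libraries 17.0 and 30.4 CPM. The Q111 libraries were the lowest of the 12 and the Q50 libraries the highest, while Q92 lay within the span of WT and KO. Against Q20, Cdkn2a fell by 2.61 in Q111 (SE 0.41, limma adjusted p = 0.00282), and this call held without each of the libraries in turn and under the other alternatives run for it. In Q92 the difference was -1.05 and did not pass (SE 0.41, limma adjusted p = 0.0967). Over the series Cdkn2a fell by 2.65 (SE 0.61, limma adjusted p = 0.0191), although its mean did not fall from Q20 to Q50. The trend was not called without Q111 replicate 1 (0.0602), without Q111 replicate 2 (0.0582), with log2 length (0.0717), or without the Q111 line, where it was -1.47 (0.17).

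The slope of Cdkn2a also differed between the cell types. In mESC its 12 values ran only from 7.13 to 18.2 CPM, with 10.7 and 10.6 CPM in Q20, 17.8 and 9.07 CPM in Q50, 13.6 and 10.3 CPM in Q92, and 18.2 and 12.9 CPM in Q111. The mESC slope was 0.36 over the series (limma adjusted p = 1), and the NPC slope was lower than it by 3.00 (SE 0.71, limma adjusted p = 0.0261), a test over the 12321 genes measured in both. It was 1 member of 10 called in that test, where 4.86% of genes were called, 2.16% lower. The call was lost without mESC Q20 replicate 1 or 2, mESC Q111 replicate 1, or NPC Q111 replicate 1 or 2 (0.0585 to 0.0648). For Trp53 the slopes differed by 1.05 and the difference did not pass (SE 0.63, limma adjusted p = 0.376).

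Of the cell-cycle genes, Cdkn1a encodes the CDK inhibitor p21, the best-known p53 target and the carrier of the promoter match printed above for its gene. In NPC it stood at 20.0 and 18.8 CPM in Q20, 47.7 and 122 CPM in Q50, 65.2 and 77.2 CPM in Q92, and 30.8 and 28.4 CPM in Q111. WT libraries had 27.3 and 38.5 CPM and KO libraries 39.6 and 33.1 CPM. The Q20 libraries, to which the other alleles are compared, were the lowest of the 12, and Q111 lay within the WT range. Against Q20, Cdkn1a rose by 1.93 in Q50 (SE 0.38, limma adjusted p = 0.00928) and by 1.82 in Q92 (SE 0.38, limma adjusted p = 0.00983). In Q111 the difference was 0.59 (95% confidence interval -0.28 to 1.46, limma adjusted p = 0.271), and the difference of Q20 from WT was -0.72 (limma adjusted p = 0.283). The Q50 call was lost without Q20 replicate 1 (0.0517) or 2 (0.0578) and in a fit restricted to its own 4 libraries (0.0506), and its size was 1.26 without Q50 replicate 2 and 2.60 without Q50 replicate 1. The Q92 call was lost without Q20 replicate 1 (0.0527), Q20 replicate 2 (0.056) or Q92 replicate 2 (0.0624).

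Ccng1, the cyclin G1 gene, which acts in feedback on p53, was the most abundant member in CPM in NPC. It stood at 247 and 260 CPM in Q20, 956 and 457 CPM in Q50, 323 and 668 CPM in Q92, and 416 and 864 CPM in Q111, with 138 and 244 CPM in WT and 183 and 241 CPM in KO. All 6 libraries of Q50, Q92 and Q111 were above all 6 of the other genotypes, and libraries of 1 genotype differed widely. Its differences from Q20, of 1.38 in Q50, 0.87 in Q92 and 1.24 in Q111, did not pass (SE 0.51 each, limma adjusted p = 0.101, 0.235 and 0.1).

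Of the cell-death genes, Bax, whose protein permeabilises the mitochondrial outer membrane, was higher in NPC of Q50 and Q92 than in Q20. It stood at 74.1 and 74.2 CPM in Q20, 133 and 152 CPM in Q50, 184 and 203 CPM in Q92, and 137 and 123 CPM in Q111. WT libraries had 82.4 and 160 CPM and KO libraries 121 and 141 CPM. As for Cdkn1a, the Q20 libraries were the lowest of the 12, and the Q92 libraries were the highest. Against Q20, Bax rose by 0.93 in Q50 (SE 0.27, limma adjusted p = 0.0433) and by 1.37 in Q92 (SE 0.27, limma adjusted p = 0.00709), while 0.80 in Q111 did not pass (limma adjusted p = 0.0542). The Q92 call held under every alternative run for it, and the Q50 call was lost without any 1 of its 4 libraries (0.118 to 0.194) and at a mean of at least 5 CPM (0.057). Its difference of Q20 from WT was -0.62 (limma adjusted p = 0.18), which became -1.096 without WT replicate 1 (0.00252). Bax shares same-strand exon sequence with the annotated gene Gm45808, whose median in NPC was 0.0139 CPM.

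Bbc3 encodes PUMA, a BH3-only activator of cell death, and varied most between libraries of 1 genotype. In NPC it stood at 2.63 and 1.99 CPM in WT, 19.8 and 2.24 CPM in KO, 7.48 and 3.65 CPM in Q20, 3.64 and 14.2 CPM in Q50, 9.76 and 20.0 CPM in Q92, and 5.35 and 0.50 CPM in Q111. The libraries of most genotypes overlapped, and no comparison of Bbc3 passed. The standard error of its differences in NPC was 1.00 on the log2 scale, so only large differences could have passed.

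Of the remaining targets, Zmat3, an RNA-binding zinc finger gene, stood in NPC at 29.4 and 62.3 CPM in Q20, 45.2 and 83.5 CPM in Q50, 139 and 106 CPM in Q92, and 83.4 and 105 CPM in Q111. WT had 24.6 and 71.5 CPM and KO 24.7 and 72.5 CPM. Replicate 2 was higher in every genotype but Q92, and only Q92 and Q111 lay wholly above Q20. Over the series Zmat3 rose by 1.32 (SE 0.40, limma adjusted p = 0.0467). That call was lost without any single knock-in library other than Q50 replicate 2 (0.0541 to 0.181), with edgeR (0.0735), with no filter (0.0515), with a length of 89 (0.0524) and without any 1 of the 4 lines (0.0586 to 0.264).

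Phlda3, an inhibitor of AKT signalling, was low in NPC, at 3.01 and 9.04 CPM in WT, 8.68 and 9.71 CPM in KO, 5.35 and 4.24 CPM in Q20, 13.4 and 11.2 CPM in Q50 and 9.21 and 6.97 CPM in Q92. Q111 held 7.62 CPM in one library and 52.7 CPM in the other, which was far above the rest. Its difference of Q111 from Q20, 1.90, did not pass (SE 0.75, limma adjusted p = 0.0904) and rested on that library: it was 3.22 (0.00703) without Q111 replicate 1 and 0.58 (0.46) without Q111 replicate 2.

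Sesn1, a sestrin that restrains mTORC1 signalling, was lower in NPC of the longer alleles than in Q20. It stood at 84.4 and 88.1 CPM in Q20, 50.3 and 53.9 CPM in Q50, 55.9 and 60.8 CPM in Q92, and 46.8 and 53.3 CPM in Q111, with 84.8 and 59.7 CPM in WT and 46.4 and 64.8 CPM in KO. All 6 libraries of the longer alleles were below both Q20 libraries. Against Q20, Sesn1 fell by 0.72 in Q50 (SE 0.21, limma adjusted p = 0.0461) and by 0.78 in Q111 (SE 0.21, limma adjusted p = 0.027), and -0.56 in Q92 did not pass (limma adjusted p = 0.0832). Both calls were lost without any 1 of the 4 libraries of the pair, with adjusted p of 0.136 to 0.193 in Q50 and 0.0809 to 0.139 in Q111, and the Q50 call also with edgeR (0.059), the replicate block (0.0581), median-of-ratios scaling (0.0514) and at a mean of at least 5 CPM (0.059).

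**Figure D2:**
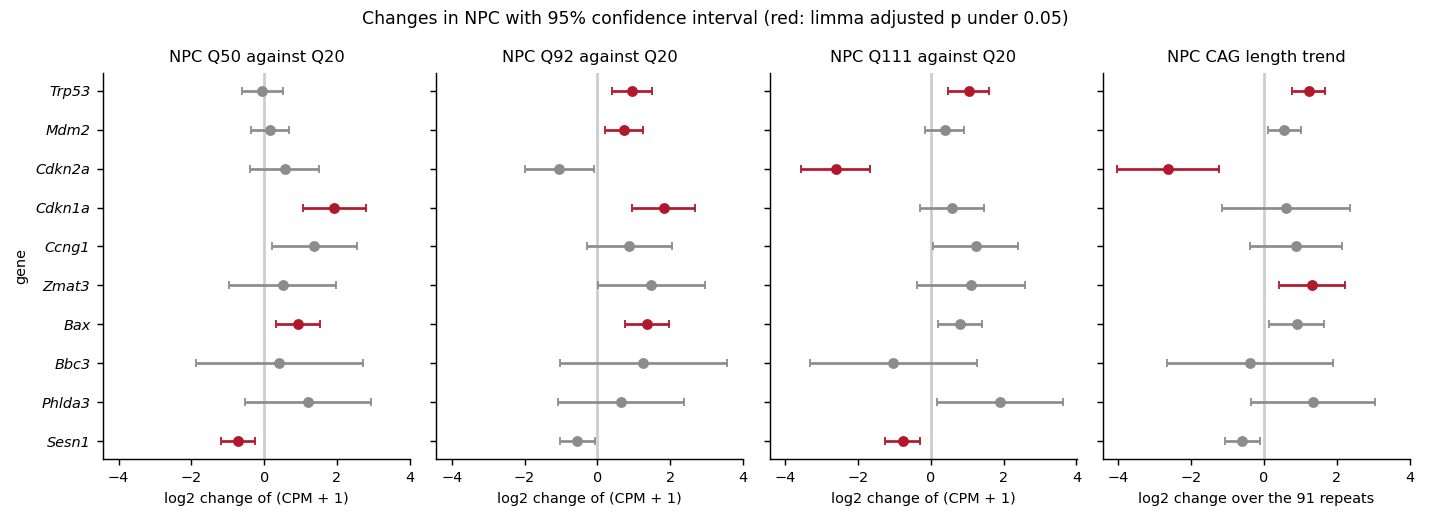
Difference of log2(CPM + 1) in NPC for each gene (horizontal axes) with its 95% confidence interval, for Q50, Q92 and Q111 against Q20 and for the fitted line from 20 to 111 repeats; red marks a limma adjusted p under 0.05. Trp53 and Cdkn2a are the genes called in both Q111 and the trend, in opposite directions.

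Marker genes also differed between the NPC genotypes. Astrocyte markers, all 7 measured, summed to 2306 to 2610 CPM in Q20, 1170 to 1766 CPM in Q50, 348 to 556 CPM in Q92 and 276 to 287 CPM in Q111. Their sums were 1275 to 2133 CPM in WT and 915 to 1449 CPM in KO. Fibroblast markers, all 10 measured, summed to 1029 to 1090 CPM in Q50, and to 121 to 376 CPM in the other genotypes. The part of cell makeup in the differences above was not tested, and in such bulk samples fewer cells of a type and less RNA per cell cannot be told apart.

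Between KO and WT no member was called in either cell type. In NPC, limma called 0 of 10 and edgeR 0 of 10, with 0 of 10 at an unadjusted p under 0.05, where limma called 1.42% of all genes. Those were 188 genes, and the number was 1577 without WT replicate 2 and 0 when the fit was restricted to the 4 WT and KO libraries. Trp53 differed by 0.42 (95% confidence interval -0.14 to 0.98, limma adjusted p = 0.545), Cdkn1a by 0.15 (-0.72 to 1.02, adjusted p = 0.921) and Mdm2 by 0.23 (-0.29 to 0.76, adjusted p = 0.755). No member separated the 2 KO from the 2 WT libraries in NPC, where 29.7% of genes did. Same-numbered KO and WT libraries deviated alike there, with r = 0.47 over genes, the highest of the 15 NPC pairs of genotypes. Neither that overlap count nor the main fit takes this pairing into account. With the replicate number as a block no member was called either. Bbc3 differed by 1.32 (limma adjusted p = 0.668), and by -0.02 without KO replicate 1, the library at 19.8 CPM. In NPC, Q20 against WT also gave 0 of 10 by limma and by edgeR, with 1 member, Bax, at an unadjusted p under 0.05, where limma called 14.5% of genes. The Q20 libraries lay wholly above or below WT for 5 of 10 members, beside 48.6% of genes. The difference between the cell types in the effect of KO gave 0 of 10 calls by both tools, with Bbc3 at an unadjusted p under 0.05, where 0.0406% of genes were called.

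**Figure D3:**
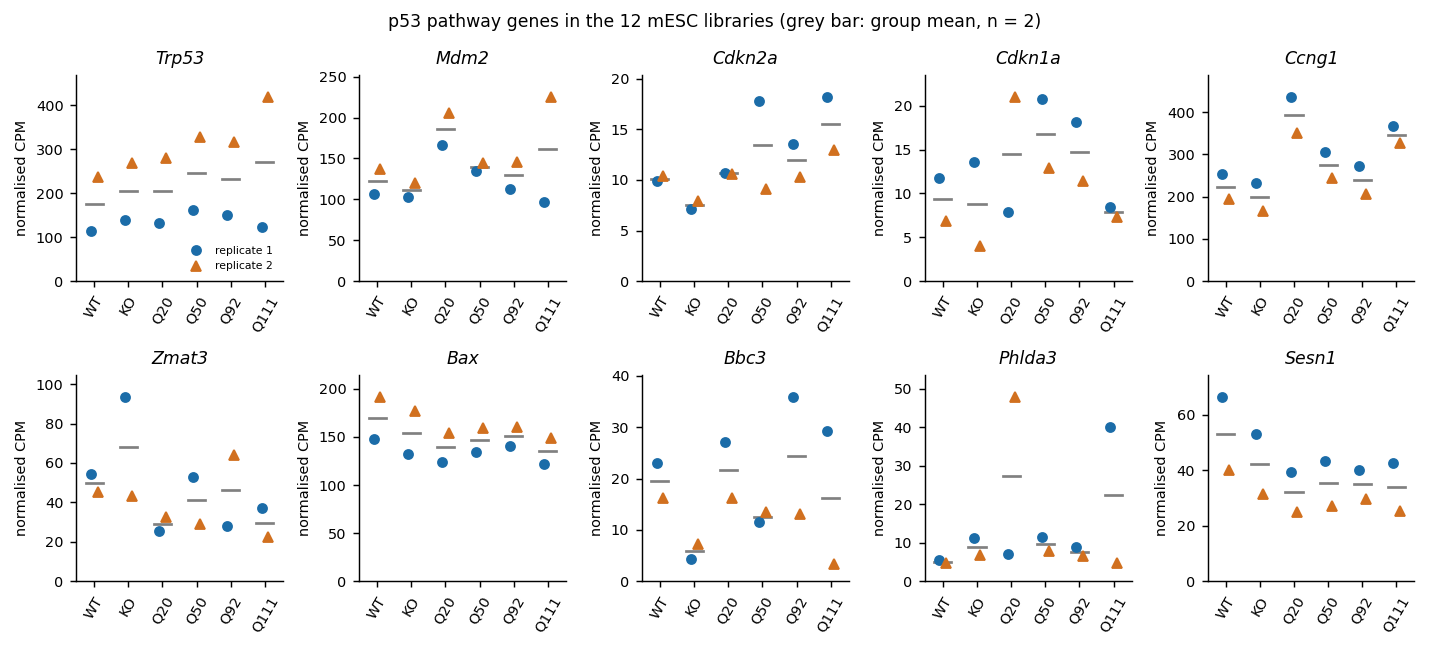
Normalised CPM (vertical axes, linear, from 0) of the 10 genes in the 12 mESC libraries by genotype; circles are replicate 1, triangles replicate 2 and grey bars the mean of 2. Trp53 lies at 114 to 163 CPM in every replicate 1 and at 237 to 420 CPM in every replicate 2.

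In mESC, with genotype as the only term, no member was called in any comparison by limma or by edgeR; with the replicate number as a further term limma called some, which are given with the alternatives. At an unadjusted p under 0.05, limma gave 1 member in Q20 against WT, in Q92 against Q20 and in the test of any genotype difference, Ccng1 each time, and 0 in the other comparisons. The background was also low: 0.0144% of genes were called in KO against WT, 0.323% in Q20 against WT, 0.00719% in Q50 and in Q92 against Q20, 0.201% in the test of any genotype difference, and 0 in Q111 against Q20 and in the trend. The median change over the 10 members was -0.15 in KO against WT and -0.14 for the trend, where all genes had 0.01 in each. The trend of Trp53 was 0.18, with a 95% confidence interval of -1.08 to 1.43 in the fit that leaves the replicate number out.

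Trp53 in mESC stood at 114 and 237 CPM in WT, 140 and 269 CPM in KO, 131 and 279 CPM in Q20, 163 and 328 CPM in Q50, 150 and 317 CPM in Q92, and 122 and 420 CPM in Q111, with replicate 1 named first. Replicate 2 was higher in all 6 genotypes, by a median of 1.06 on the log2 scale, and the 2 sets of 6 libraries did not overlap. Mdm2 and Bax were also higher and Ccng1 and Sesn1 lower in replicate 2 of all 6 genotypes, so that 5 of 10 members kept 1 side. Among all genes of mESC 41.4% did so, and among those of NPC 4.82%. The labels do not say what the replicate numbers stand for. Within replicate 1 the Q111 library differed from Q20 in Trp53 by -0.10, and within replicate 2 by 0.59.

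**Figure D4:**
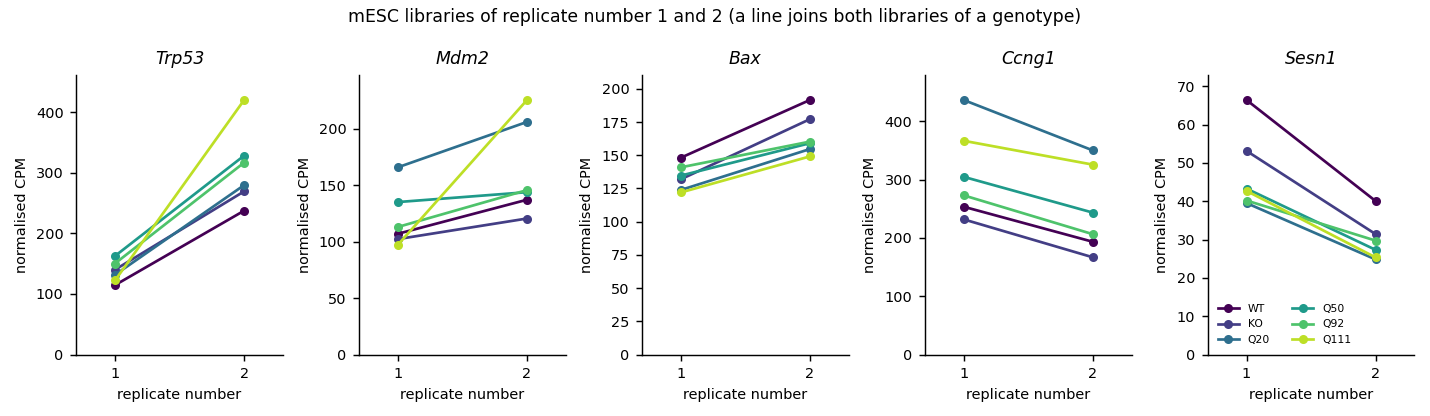
Normalised CPM (vertical axes, linear, from 0) of the 5 genes that kept 1 side in mESC, by replicate number; each line joins the 2 libraries of a genotype. Trp53, Mdm2 and Bax are higher, and Ccng1 and Sesn1 lower, in number 2 in all 6 genotypes.

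Ccng1 was the mESC member closest to a call by genotype. It stood at 254 and 193 CPM in WT, 232 and 167 CPM in KO, 437 and 350 CPM in Q20, 305 and 243 CPM in Q50, 273 and 206 CPM in Q92, and 367 and 326 CPM in Q111. The Q20 libraries lay above both WT libraries and above both libraries of Q50 and Q92. The difference was 0.82 and did not pass (SE 0.25, limma adjusted p = 0.213). Feeder fibroblast markers, of which 9 of 10 were measured and 8 reached 1 CPM, summed to 23.5 to 35.4 CPM in WT and KO and to 59.3 to 98.1 CPM in the knock-in libraries, with Col3a1 and Twist2 at 0 in at least 1 library; their part in this difference was not tested.

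Both libraries lay apart from those of the other group for 6 of 10 members in Q20 against WT, and against Q20 for 3 of 10 in Q50, 2 of 10 in Q92 and 1 of 10 in Q111, beside 39.2%, 32.7%, 30.3% and 22.7% of genes. Mdm2 ran from 97.3 to 226 CPM, both in Q111, and Cdkn1a from 3.99 CPM in KO replicate 2 to 21.03 CPM in Q20 replicate 2. Bax ran from 122 CPM in Q111 replicate 1 to 192 CPM in WT replicate 2, the smallest ratio of highest to lowest among the members (1.57). Zmat3 ran from 22.4 to 93.5 CPM and Sesn1 from 24.8 to 66.4 CPM. Phlda3 lay between 4.66 and 11.6 CPM in 10 libraries and at 47.9 CPM in Q20 replicate 2 and 40.1 CPM in Q111 replicate 1. Bbc3 stood at 22.9 and 16.2 CPM in WT and at 4.39 and 7.24 CPM in KO, a difference of -1.61 that did not pass (95% confidence interval -3.45 to 0.24, limma adjusted p = 1). That was 1 of 3 members that separated KO from WT in mESC, with Phlda3 and Cdkn2a, beside 25% of genes. The first library labelled KO in mESC was not low in Htt, as given above.

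Among further genes of the pathway, those that p53 is known to induce moved in both directions along the repeat series in NPC. Of 34 listed, 33 were tested and 9 called, with 6 higher and 3 lower, a median of 0.34 beside 0.04 for all genes, where 22% of all genes were called, 12% higher and 10.1% lower. Against Q20 the same 33 genes gave 8 higher and 1 lower in Q50, where 8.05% of all genes were called higher and 10.7% lower. In Q92 they gave 10 higher and 2 lower, beside 9.88% and 15.9% of all genes. In Q111 they gave 3 higher and 8 lower, beside 12.2% and 16.1%. Plk2, a polo-like kinase, rose by 3.01 (SE 0.47, limma adjusted p = 0.00432), from 88.8 ± 1.33 CPM in Q20 to 910 ± 21.9 CPM in Q92 and 537 ± 29.9 CPM in Q111 (SD, n = 2 each). Plk2 was at 282 ± 291 CPM in WT and 593 ± 223 CPM in KO, and its mean was lowest in Q20. Gtse1, a mitotic gene whose protein restrains p53, rose by 1.099 (SE 0.14, limma adjusted p = 0.00186), from 72.9 ± 0.98 CPM in Q20 to 153 ± 7.47 CPM in Q111. WT held 91.1 ± 74.9 CPM of Gtse1 and KO 99.9 ± 60.4 CPM. Ddit4, a stress-induced brake on mTORC1, fell by 1.53 (SE 0.29, limma adjusted p = 0.00962), from 90.3 ± 3.80 to 25.7 ± 0.98 CPM. Its mean was highest in Q20, with 54.7 ± 8.57 CPM in WT and 56.9 ± 21.8 CPM in KO. Btg2, an antiproliferative gene, fell by 1.52 (SE 0.46, limma adjusted p = 0.0476), a call lost without most single knock-in libraries (0.0529 to 0.136) and with edgeR (0.0699), among other alternatives. The third gene that fell, named after its value was seen because it was under the level set for naming, was Perp, by 1.95 (limma adjusted p = 0.0171; 0.0764 without Q20 replicate 2).

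Of 15 p53 regulators tested, 5 were called in the NPC trend, with 4 higher and 1 lower, where 22% of all genes were called. The 4 were the damage-response kinases. Chek1 rose by 1.25 (SE 0.18, limma adjusted p = 0.00322), from 28.1 ± 2.62 CPM in Q20 to 65.1 ± 1.75 CPM in Q111. Atm rose by 1.17 (SE 0.22, limma adjusted p = 0.00955), from 93.9 ± 10.2 to 200 ± 5.74 CPM. Atm was at 158 ± 10.7 CPM in Q50 and highest in Q92, at 239 ± 14.5 CPM. WT and KO held 37.1 ± 32.3 and 41.4 ± 16.6 CPM of Chek1. For Atm they held 151 ± 60.6 and 184 ± 62.4 CPM. Both genes had their lowest mean in Q20. Atr rose by 0.59 (limma adjusted p = 0.0119; 0.0614 without Q20 replicate 1). Chek2 rose by 0.62 (limma adjusted p = 0.0201; 0.0721 to 0.0849 without either Q20 library and 0.0519 without Q111 replicate 2). Trp73, a paralogue of Trp53, fell by 1.21 (limma adjusted p = 0.0301; lost without any library of Q20, Q92 or Q111, at 0.052 to 0.121). Atr, Chek2 and Trp73 were named after their values were seen.

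Other CDK inhibitor genes gave 0 of 6 calls in the NPC trend by limma and by edgeR, with 2 of 6 at an unadjusted p under 0.05. Of 10 BCL2 family genes tested, 1 was called, Hrk, falling by 1.68 (limma adjusted p = 0.0197; 0.0586 to 0.0859 without either Q20 or either Q111 library), and it too was named after its value was seen. The list of cell-cycle genes that p21 is known to repress gave 9 of 12 calls, all higher, with a median of 1.23, beside 22% of all genes called and 12% called higher. In the fit of all 6 genotypes the same list gave 0 of 12 calls in Q50, Q92 and Q111 against Q20 and in the test of any difference, by limma; that fit also holds the WT and KO libraries, which differed widely in these genes. Cdk1, the mitotic kinase, rose by 1.62 (SE 0.14, limma adjusted p = 0.000828), from 128 ± 1.52 CPM in Q20 to 407 ± 1.20 CPM in Q111. Mybl2, a cell-cycle transcription factor, rose by 1.49 (SE 0.28, limma adjusted p = 0.00866), from 14.6 ± 1.82 to 53.3 ± 2.35 CPM. WT and KO held 233 ± 195 and 248 ± 180 CPM of Cdk1. For Mybl2 they held 26.1 ± 24.0 and 32.6 ± 24.3 CPM. Summed over the 12 genes, the list stood at 890 to 918 CPM in Q20, 894 to 1098 CPM in Q50, 1437 to 1500 CPM in Q92 and 2117 to 2119 CPM in Q111. Over the same series Cdkn1a itself was not called (0.60, SE 0.77, limma adjusted p = 0.618).

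**Figure D5:**
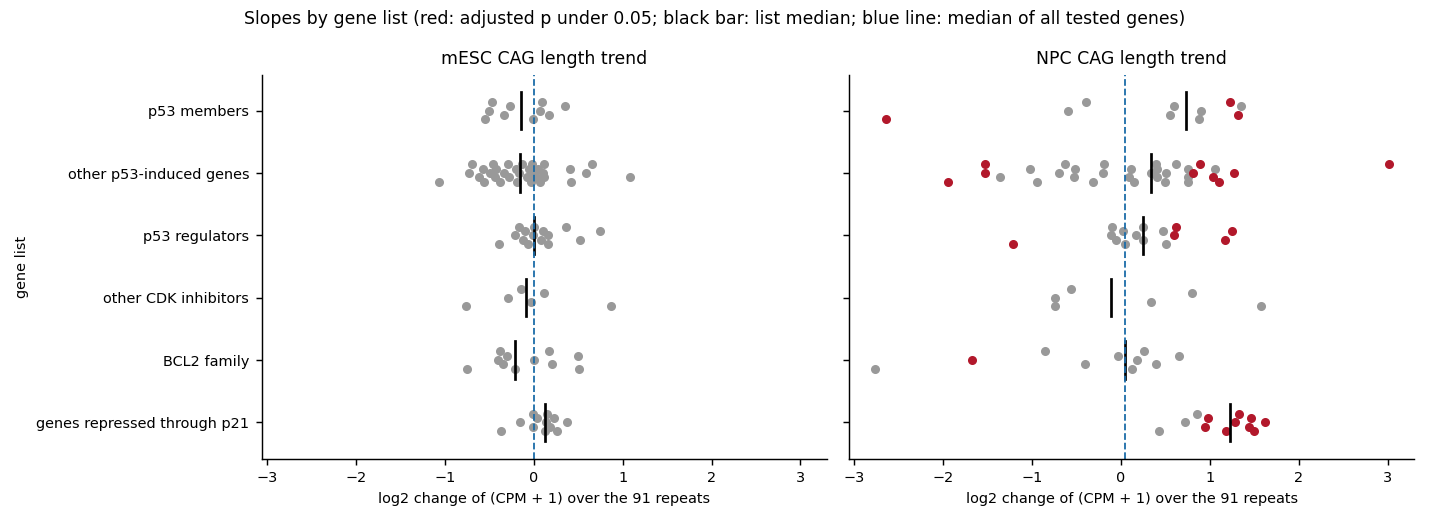
Fitted change of log2(CPM + 1) from 20 to 111 repeats (horizontal axes) for each gene of 6 lists in mESC and NPC; red marks a limma adjusted p under 0.05, black bars list medians and the blue line the median of all genes tested. In NPC 9 of the 12 genes repressed through p21 are called higher, and in mESC no gene of any list is called.

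In KO against WT, Bid, a BH3-only gene that feeds death-receptor signals to Bax, was the 1 gene of these 5 lists called in NPC. Among all genes 1.42% were called there. Bid rose by 2.11 (SE 0.37, limma adjusted p = 0.0394), from 5.23 ± 2.65 CPM in WT to 24.7 ± 0.10 CPM in KO (SD, n = 2). Its means in Q20, Q50, Q92 and Q111 were 13.6, 20.8, 12.6 and 19.8 CPM, so WT was the lowest group. The call was lost without KO replicate 1 (0.123), KO replicate 2 (0.112) or WT replicate 1 (0.103), with edgeR (0.0597), with the replicate block (0.064), at a mean of at least 5 CPM (0.053) and in a fit restricted to its own 4 libraries (0.688). In mESC no gene of the 5 lists was called by limma or edgeR in KO against WT or in the trend, with 3 of 78 and 4 of 78 at an unadjusted p under 0.05 by limma. Of all 13916 genes, 553 and 358 reached that unadjusted level, and limma called 2 and 0.

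The genes nearest in pattern to 3 members were found by Pearson correlation of log2(CPM + 1) over the 12 libraries of a table, which share genotypes and replicate numbers; these are descriptions with no test. In NPC the nearest to Cdkn1a were Rchy1 (r = 0.924), Fnbp1 (0.913) and Stx4a (0.90), the nearest to Mdm2 were Focad (0.954), Cnbp (0.950) and Sart3 (0.946), and the nearest to Cdkn2a were Dnaic1 (0.954), Kcnk1 (0.940) and Loxl1 (0.914). In mESC they were Lama5 (0.876), Hist1h2ag (0.857) and Sspn (0.853) for Cdkn1a, Rgs5 (0.944), Pip4k2b (0.943) and Mt4 (0.938) for Mdm2, and Wnt9a (0.893), Naf1 (0.874) and Enkd1 (0.871) for Cdkn2a. Among the members themselves, Mdm2 followed Bax (r = 0.83), Zmat3 (0.83) and Trp53 (0.80) in NPC, and Trp53 ran against Cdkn2a (-0.61) there. In mESC the strongest was that of Trp53 against Sesn1 (-0.88), 2 genes that differed between the replicate numbers in opposite directions.

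On GRCm38, in the GENCODE M21 annotation, the members are protein-coding genes. Trp53 lies at chr11:69580359-69591873 and Ccng1 at chr11:40748552-40755311, Mdm2 at chr10:117688875-117710758 and Sesn1 at chr10:41809935-41908424, and Bax at chr7:45461697-45466898 and Bbc3 at chr7:16308393-16318205. Cdkn1a lies at chr17:29090976-29100727, Cdkn2a at chr4:89274471-89294653, Zmat3 at chr3:32334792-32366014 and Phlda3 at chr1:135766119-135769136. Cdkn1a has an annotated antisense partner with shared exon sequence, AC167363.2, and strand use in counting is not given in the sources used here, so reads from the 2 cannot be told apart. The pseudogene Trp53-ps, annotated on chromosome 17, had no entry in either deposited expression table. How reads shared with Trp53 were assigned is not given in the sources used here.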

How the data were processed

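Gene expression was measured by paired-end RNA-seq in 12 mESC and 12 NPC libraries, grouped by genotype from the sample titles. The submitters' processing notes name CASAVA 1.8, STAR and GRCm38.p6; the counting tool, annotation, strand use and filter on genes are not given in the sources used here. The deposited values are a normalised signal per gene, read counts scaled to CPM with effective library sizes, since 100% of values were whole multiples (within 0.05 reads) of 1 step per library and edgeR's TMM factors gave back that scaling in both tables. Per the labels, the libraries aimed at 60M reads; recovered totals are given above. Gene identifiers listed more than once were kept once, which left 17501 of 17505 entries in mESC and 16024 of 16025 in NPC, and none was a member.

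Values were analysed as log2(CPM + 1) with limma 3.58.1 (R 4.3.3, moderated test with mean trend, two-sided), 1 mean per genotype with a shared spread, genes at 1 CPM or more in 2 libraries, Benjamini-Hochberg adjustment over all genes of a table and a threshold of 0.05. Slopes used the repeat length of the titles, scaled to 91 repeats. Because these are not raw counts, edgeR 4.0.16 on recovered reads was an alternative: for Q50, Q92 and Q111 against Q20 in NPC it called 2101, 3162 and 3436 genes, where limma called 2478, 3407 and 3743. For the NPC trend it called 2731 and limma 2909. The fits were tested on simulated data.

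Other alternatives were a pseudocount of 0.25, no filter, a mean of at least 5 CPM, median-of-ratios scaling, the replicate number as a block, each library left out in turn, only the libraries of both groups, a length of 89, log2 length, 1 mean per line, and each line left out. The 10 members, the further gene lists and the tests were chosen with earlier results of these data known. All members are named in every table. From the other lists the 2 largest called rises and falls with a mean of at least 5 CPM were named, for the trend and for KO against WT, as were the 3 genes nearest in pattern to Cdkn1a, Mdm2 and Cdkn2a. Positions and exon lengths come from GENCODE M21, which matched 99.6% of mESC and 99.8% of NPC genes. A genome sequence was not used here, so the search for response elements was limited to RefSeq promoter windows.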

Additional observations from a re-analysis of the deposited data

Results flagged for a closer look

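The slope of Cdkn2a on repeat length was the 1 result that a test of the difference between the cell types set apart: it was lower in NPC than in mESC by 3.00 on the log2 scale from 20 to 111 repeats (-3.00, SE 0.71, limma adjusted p = 0.0261 over 12321 genes). Cdkn2a was 1 member of 10 called there, where 4.86% of all genes were called. The 4 lowest of the 8 knock-in values in NPC were those of Q92 and Q111, at 5.71 to 29.7 CPM, and in mESC the 8 values ran from 9.07 to 18.2 CPM with no such order. Its part from cell makeup was not tested; astrocyte markers summed to 2306 and 2610 CPM in Q20 and to 276 and 287 CPM in Q111 of the same NPC libraries. The call was lost with log2 length (0.101) and with 1 mean per line (0.347), a fit that called 0 of the 12321 genes. It was also lost without the Q111 line, where the difference was -1.62 (SE 0.84, limma adjusted p = 0.354). Leaving out some single libraries lost the call as well, as given above.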

How the results depend on the processing

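Over 58 gene results and 890 alternatives, 723 kept their direction and side of the threshold, 136 lost a call and 19 gained one. Another 12 changed direction, none of which was a call. The 58 include results that were not called, and for these staying uncalled was counted as kept. Over 231 alternative counts of called members, 38 moved by over 1.5 times. The number called over all genes also changed between settings, and did so when single libraries were left out. For Q50, Q92 and Q111 against Q20 in NPC, it fell without any single library of the pair. For any genotype difference in NPC, it fell without any single knock-in library and rose without any single WT or KO library. A member count from such a fit therefore cannot be read apart from the number over all genes. The cause of these changes was not tested. With 1 mean per line, which called 0 of all genes, the NPC trend gave 0 members and the difference of trends 0. Log2 length also gave 0 for the difference of trends, where 640 of 12321 genes were called. Without the Q111 line that difference gave 2 members, where 348 of 12321 genes were called. Cdkn2a was not among them (limma adjusted p = 0.354). Q50 against Q20 gave 1 at a mean of at least 5 CPM, where 1375 of 10566 genes were called. Q111 against Q20 gave 6 with only its own 4 libraries, where 6712 of 13206 genes were called. Leaving out single libraries (a lone sample is assumed to vary like the other groups) gave, in NPC, 0 to 1 member for KO and for Q20 against WT, 0 to 1 for Q50, 1 to 2 for Q92 and for Q111, 1 to 3 for the trend, 1 to 7 for any genotype difference and 0 to 2 for the difference of trends. Directions changed for the Bax trend without the Q20 line (-0.0011), the Trp53 mESC trend without that line (-0.063), and under leave-one-out, whose values ran for KO against WT in NPC from -0.0863 to 0.392 (Cdkn1a), -0.14 to 0.61 (Mdm2) and -0.0226 to 2.66 (Bbc3), in mESC from -0.29 to 0.76 (Trp53), -1.004 to 0.548 (Cdkn1a) and -0.302 to 0.053 (Mdm2), and for the Trp53 mESC trend from -0.31 to 0.68. Median-of-ratios scaling moved the median of all genes by at most 0.05 in either direction (-0.05 in Q92 against Q20).

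The replicate numbers are shared across genotypes, and the labels do not say that they mark a day or batch. In mESC the deviations of same-numbered libraries correlated over 0.1 in 15 of 15 pairs of genotypes (0.25 to 0.55), and in NPC in 3 of 15 (-0.05 to 0.47). With the replicate number as a block, mESC gave 2 members for Q20 against WT (Ccng1, adjusted p = 0.00762, and Sesn1, 0.0212; limma), 1 for Q92 against Q20 (Ccng1, 0.0407), 1 for any genotype difference, and the difference of trends gave 2 (Cdkn2a and Trp53, 0.0413). The block left the Trp53 trend in mESC at 0.18 with an SE of 0.18 in place of 0.56 (limma adjusted p = 0.945). Over all genes the block raised the calls for Q20 against WT in mESC from 45 to 1475 of 13916. For Q92 against Q20 in mESC they rose from 1 to 64, and for any genotype difference from 28 to 1206. For the difference of trends they rose from 599 to 1005 of 12321. As to depth, the smallest member value, Bbc3 in 1 NPC library, rested on 35 reads.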
